A study of Mus musculus with 37 samples.

Results

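The genes described here bring fatty acids from blood lipids into cells: Lpl, Gpihbp1, Angptl4, Cd36, Fabp4, Fabp5 and Slc27a1. They were taken as every probe set that the array platform's annotation assigns to one of these 7 symbols. That gave 6 of the 7 genes, with 14 of the 22690 probe sets on the array (12393 genes are named by a probe set of their own): 4 probe sets for Fabp4, 3 for Cd36, 2 each for Lpl, Angptl4 and Fabp5, and 1 for Slc27a1. No probe set carried the name Gpihbp1, so that gene was not analysed here. The tissue was the mammary gland of female C57BL/6 mice, 9 weeks old at the start, whose food intake, weight and activity were recorded over 6 weeks. The groups were calorie-restricted mice with running wheels (CR+EX, 9 animals), calorie-restricted mice without wheels (CR, 9 animals), mice fed ad libitum with running wheels (AL+EX, 9 animals) and mice fed ad libitum without wheels (AL, 10 animals). Restriction was by 30%, so that CR+EX and CR diets held 70% of the AL calories, with the other nutrients kept level. Left and right thoracic glands of an animal, about 60 mg each, were pooled, and each of the 37 animals had 1 Affymetrix array.

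Lipoprotein lipase, the product of Lpl, splits the triglycerides of chylomicrons and very low density lipoproteins at the inner face of capillaries. GPIHBP1 carries the enzyme across the endothelium and holds it there, and ANGPTL4, a protein made in fat under fasting, inactivates it. The released fatty acids enter cells with the help of the membrane proteins CD36 and FATP1 (the product of Slc27a1), and the small carriers FABP4 and FABP5 bind them inside the cell. In the mammary gland of a virgin mouse most of the tissue is a fat pad, and fat cells, capillary endothelium, macrophages and muscle fibres can all express several of these genes.

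The fat cell gene Adipoq had a median signal of 17214 and was at 12687 or more on every array, while the fat cell marker Lep had a median of 270.3. The epithelial keratins Krt8 and Krt18 were at 2593 and 3593. Genes of skeletal muscle (Acta1, median 25274) and of brown fat (Ucp1, median 10794) were also bright. Of the 37 arrays, 15 stood apart by high B lymphocyte genes (3 CR+EX, 4 CR, 4 AL+EX and 4 AL), called the lymphocyte-rich arrays here. The animal numbers were cut into blocks of 24, a cut that the labels do not give. The 4 blocks that hold arrays are called runs here. They are 8 arrays numbered 2 to 22, 11 numbered 26 to 48, 10 numbered 50 to 70, and 8 with higher numbers. Each run holds all 4 groups. All 8 arrays of run 4 are lymphocyte-rich, so leaving out the lymphocyte-rich arrays also removes run 4 and leaves 22 arrays. The 2 changes cannot be told apart in that setting. The labels do not call a run a batch. The median over a run of the brightest signal of an array was 24475, 26521, 40967 and 48499 in runs 1 to 4. Signals are in arbitrary units, log2 differences are of signal + 16, errors are standard errors of the limma fit, and a probe set was called at a Benjamini-Hochberg adjusted p under 0.05.

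Calorie restriction, averaged over mice with and without wheels, raised Fabp5 the most among these genes, by 2.66-fold on one probe set and 2.04-fold on the other. Slc27a1 was 1.66-fold higher, and 1 probe set each of Lpl, Fabp4 and Angptl4 was 1.31- to 1.36-fold higher. No member probe set was called lower, and none of the 3 Cd36 probe sets was called. Of the 13 member probe sets that passed the filter on low signal, 6, from 5 genes, were called higher. Over all 16969 probe sets tested 7.31% were called, 3.43% higher and 3.88% lower. The median difference of the 13 was 0.26, with a range of -0.14 to 1.41, beside a median of -0.03 over all probe sets tested. The filter removed probe sets with a mean signal under 63.2, and no tested member fell below 878 on any array. The 14th, a dim Angptl4 probe set, did not pass it. In whole tissue a change in RNA per cell cannot be told apart from a change in the number of cells that carry it.

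**Figure D1:**
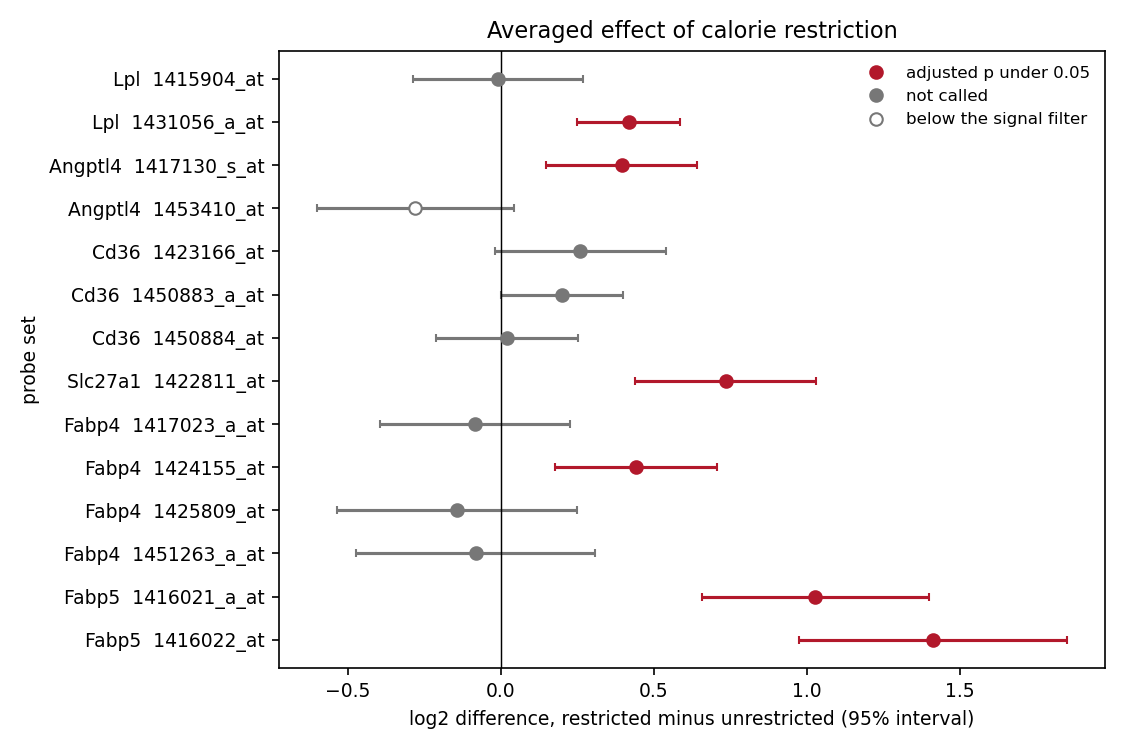
Log2 difference of the 18 restricted minus the 19 unrestricted arrays for each of the 14 member probe sets (points), with the 95% interval of the limma fit (bars). The 6 called probe sets, in red, lie between 0.39 and 1.41, and the other probe sets of Lpl and Fabp4 lie at or below 0. The open point is the Angptl4 probe set below the filter on low signal.

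The enzyme gene Lpl gave different answers on its 2 probe sets. On 1431056_a_at the lowest, median and highest signals were 10288, 13758 and 18777 in CR+EX glands, 9124, 13233 and 16195 in CR glands, 6955, 9345 and 10845 in AL+EX glands and 8840.3, 10540 and 14254 in AL glands. Both restricted groups had higher medians than both unrestricted groups, and the ranges overlapped. Restriction raised this signal by 0.42 ± 0.08 (adjusted p = 0.0017), and 17 of 18 restricted arrays lay above the unrestricted median. The clearest pair was CR+EX against AL+EX, where 8 of 9 CR+EX arrays exceeded the highest AL+EX array (0.62 ± 0.12, adjusted p = 0.0056). Without the lymphocyte-rich arrays neither call held, at 0.33 (adjusted p = 0.058) for the averaged effect and 0.55 (adjusted p = 0.082) for this pair.

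The other Lpl probe set, 1415904_at, had lowest, median and highest signals of 14787, 24017 and 38773 in CR+EX glands, 16662, 26357 and 31928 in CR glands, 14971, 18288 and 37052 in AL+EX glands and 17053, 23803 and 43867 in AL glands. The groups lay on top of each other, and the averaged difference was -0.01 ± 0.14 (95% interval -0.29 to 0.27, adjusted p = 0.98). A permutation test of restriction on the difference between both probe sets, adjusted over the 12 pairs of probe sets of one gene that were compared, gave 0.42 for 1431056_a_at minus 1415904_at (adjusted p = 0.016). Signals on 1415904_at differed between the runs of animal numbers, with median signals of 18401, 18745, 28138 and 28986 in runs 1 to 4. The brightest signal of an array differed between these runs too, as given above. Over the 37 arrays 1415904_at, 18th of all probe sets by mean signal, followed that brightest signal at r = 0.921. For 1431056_a_at r was 0.0006. Whether 1415904_at was limited at the top of the scale was not tested. The run accounted for a share of 0.752 of its variance and of 0.084 of that of 1431056_a_at. Within runs 1 to 4 the restriction effect on 1431056_a_at was 0.13, 0.33, 0.51 and 0.72. With both probe sets averaged, Lpl differed by 0.20 ± 0.09 and was not called (adjusted p = 0.17).

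**Figure D2:**
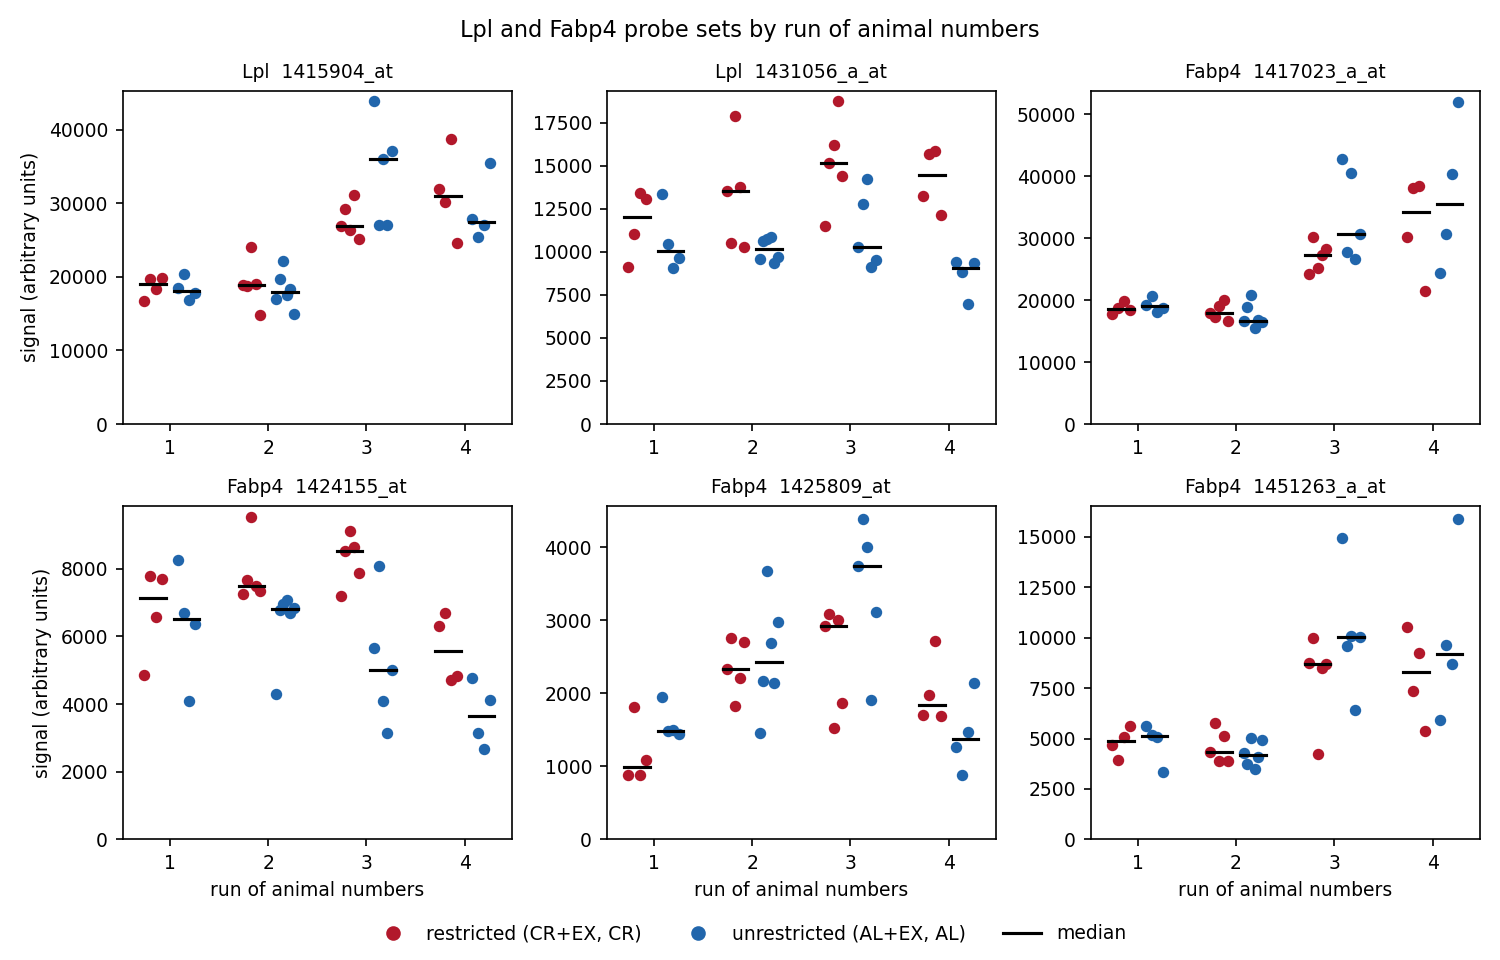
Signal (arbitrary units) on each array for the 2 Lpl and 4 Fabp4 probe sets by run of animal numbers, with restricted arrays in red to the left of unrestricted arrays in blue and black bars at the medians. Lpl 1415904_at, Fabp4 1417023_a_at and Fabp4 1451263_a_at step up between runs 2 and 3 in both diets, whereas Lpl 1431056_a_at differs between diets, by 0.13 to 0.72 on the log2 scale within the runs.

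Angptl4, the inhibitor, was measured above the filter by 1 of its 2 probe sets. On 1417130_s_at, a design whose probes can match transcripts of more than one gene, the lowest, median and highest signals were 3132, 3824 and 5502 in CR+EX glands, 2424, 3816 and 5982 in CR glands, 1754, 2964 and 3576 in AL+EX glands and 1881, 3261 and 4729 in AL glands. The restricted medians stood above both unrestricted medians, and 16 of 18 restricted arrays lay above the unrestricted median. The averaged effect was 0.39 ± 0.12 (adjusted p = 0.040). It was close to the threshold: leaving out 1 array at a time gave adjusted p-values of 0.015 to 0.068, and the call was lost without 15 of the 37 arrays (4 CR+EX, 4 CR, 3 AL+EX and 4 AL). It was also lost after quantile normalization (0.31, adjusted p = 0.099), without the lymphocyte-rich arrays (0.24, adjusted p = 0.26), without the AL+EX animals 56 and 58 (0.42, adjusted p = 0.053) and, narrowly, with no filter on low signal. No pair of groups passed for Angptl4.

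The second Angptl4 probe set, 1453410_at, read 9.9 to 47.5 in CR+EX glands, 3.2 to 39 in CR glands, 14.8 to 93.8 in AL+EX glands and 3.7 to 43.8 in AL glands. It lay below the filter on low signal, and its value in the fit without the filter was -0.28 ± 0.16 (adjusted p = 0.36). At that signal it gives no measure of Angptl4 to set against 1417130_s_at.

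Cd36, the fatty acid translocase of fat cells, muscle, capillaries and macrophages, was not called on any of its 3 probe sets. On 1423166_at the lowest, median and highest signals were 8802, 9438 and 12352 in CR+EX glands, 6700.4, 9383 and 14359 in CR glands, 2752, 8266 and 11864 in AL+EX glands and 6188, 9459.7 and 12650 in AL glands. The medians of CR+EX, CR and AL were nearly level, and AL+EX reached lower than the rest. The averaged effects of restriction were 0.26 ± 0.14 (1423166_at, adjusted p = 0.26), 0.20 ± 0.10 (1450883_a_at, adjusted p = 0.22) and 0.02 ± 0.11 (1450884_at, adjusted p = 0.95), with 95% intervals that reached 0.54, 0.40 and 0.25.

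The AL+EX animals 56 and 58 read low for Cd36 on 2 of the 3 probe sets, with 3452 and 2752 on 1423166_at and 5177 and 3679.7 on 1450883_a_at. On 1450884_at they read 1568, the AL+EX median, and 1258, and the AL+EX animal 130 was lower (1009). Their macrophage and endothelial marker genes were low as well: of the 37 arrays they ranked 2nd and lowest by the mean of the macrophage markers, and 3rd and lowest by that of the endothelial markers. Counted from the lowest, they ranked 10th and 9th by the fat cell markers. By the skeletal muscle markers they ranked 32nd and 35th, near the top. Their part in the result was not tested beyond leaving them out, which brought the averaged effect on 1423166_at to 0.09. Both animals are in run 3, where the difference on 1423166_at was 1.15, against -0.10, 0.002 and -0.04 in runs 1, 2 and 4. The same animals were at the bottom for Fabp5 1416022_at (911 and 952) and Slc27a1 (1537 and 1546).

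Slc27a1, the gene of the transporter FATP1, rose clearly. The lowest, median and highest signals of 1422811_at were 3642, 5415 and 6705 in CR+EX glands, 3545, 5657 and 8123 in CR glands, 1537, 3202 and 6311 in AL+EX glands and 2439, 3184 and 4761 in AL glands. All 18 restricted arrays lay above the unrestricted median, and 8 of 9 CR arrays lay above the highest AL array. The averaged effect was 0.73 ± 0.15 (adjusted p = 0.0018). It stayed called when any 1 array was left out (adjusted p 0.00038 to 0.0038), without the lymphocyte-rich arrays (0.67, adjusted p = 0.042) and without animals 56 and 58 (0.59, adjusted p = 0.0058). By run the difference was 0.45, 0.24, 1.55 and 0.77, positive in each. A Gapdh 3' to 5' signal ratio over 2, called a high Gapdh end ratio here, was found on 5 arrays: 3 AL, 2 CR+EX, 0 CR and 0 AL+EX. The AL ones (animals 2, 4 and 54) read 2439, 2591 and 2546, the lowest of AL. The CR+EX ones (animals 20 and 22) read 3644 and 3725. Over the 37 arrays Slc27a1 had r = -0.386 with this ratio. The averaged call held without these 5 arrays, and the part of RNA quality was not tested further.

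**Figure D3:**
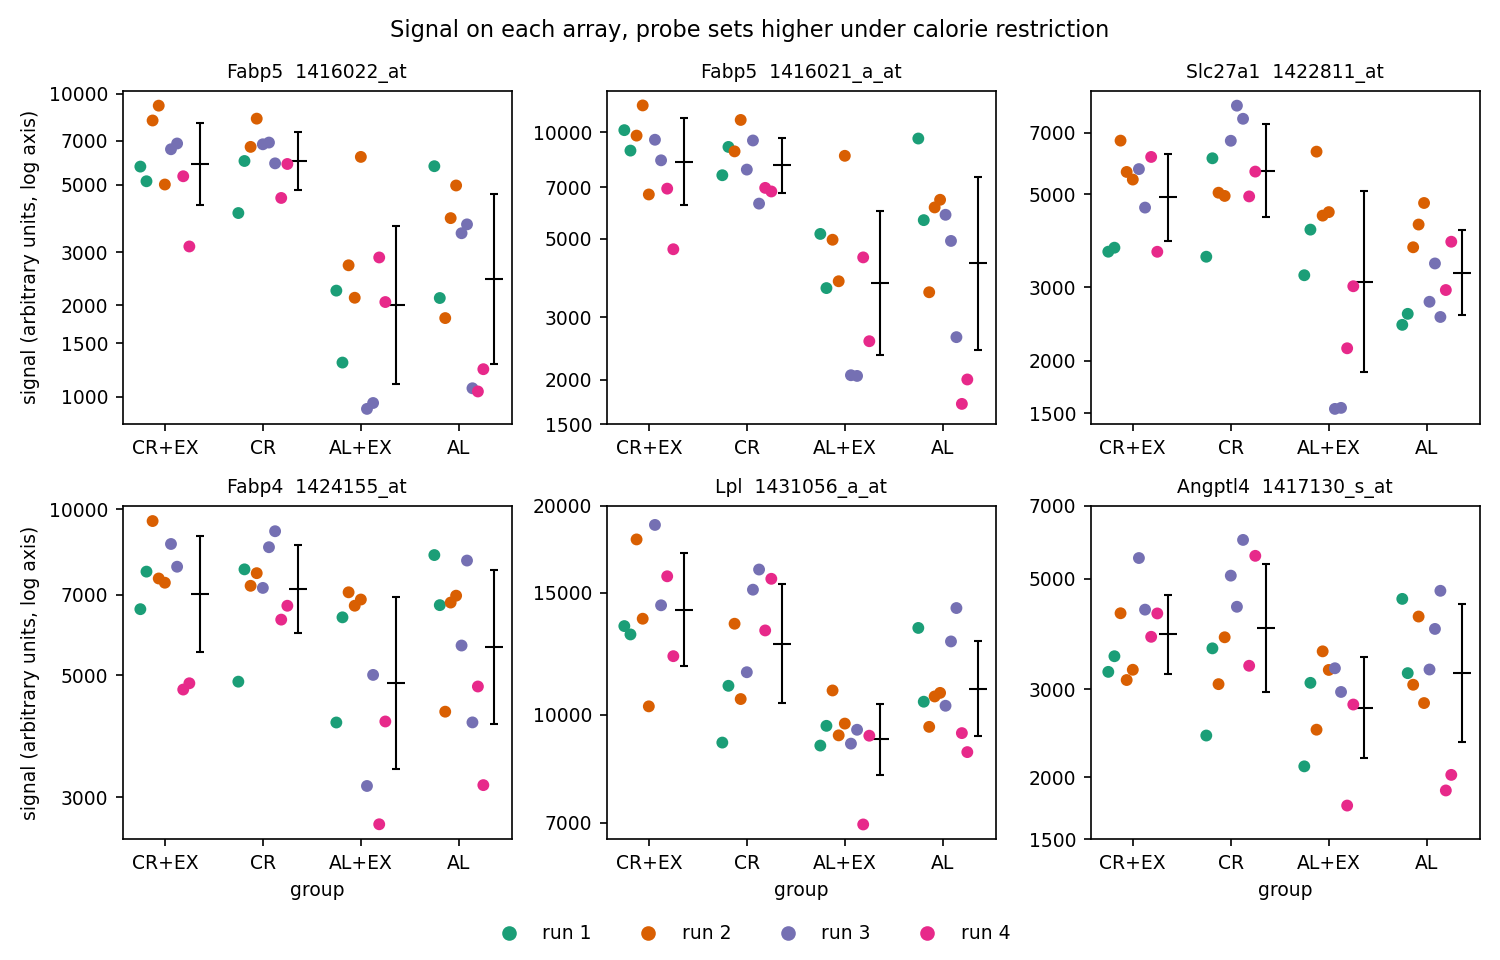
Signal (arbitrary units, log axis) on each array for the 6 probe sets called under restriction, by group, coloured by run of animal numbers, with black marks for the mean and SD on the log2 scale. CR+EX and CR arrays lie higher than AL+EX and AL arrays on average for each probe set, and the groups overlap in all 6.

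Fabp4, the main fatty acid carrier of fat cells, was measured by 4 probe sets, and only 1424155_at was called. Its lowest, median and highest signals were 4706, 7486 and 9518 in CR+EX glands, 4863, 7261 and 9122 in CR glands, 2679, 5002 and 7066 in AL+EX glands and 3156, 6177 and 8256 in AL glands. Restricted medians were above unrestricted ones, with 15 of 18 restricted arrays above the unrestricted median. The averaged effect of 0.44 ± 0.13 (adjusted p = 0.032) missed the threshold without animal 44, 54, 56, 66 or 68 (adjusted p up to 0.060), after quantile normalization (0.37, adjusted p = 0.10) and without the lymphocyte-rich arrays (0.24, adjusted p = 0.10). It was also lost without animals 56 and 58 together (0.40, adjusted p = 0.084) and, narrowly, without the 5 arrays with a high Gapdh end ratio.

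Fabp4 1417023_a_at had medians of 20004 in CR+EX, 24252 in CR, 18743 in AL+EX and 22519.5 in AL glands, with no group apart from the others. It was at -0.08 ± 0.15 (adjusted p = 0.80), 1451263_a_at at -0.08 ± 0.19 (adjusted p = 0.85) and 1425809_at at -0.14 ± 0.19 (adjusted p = 0.72). The run accounted for shares of 0.734, 0.635 and 0.492 of the variance of these 3, and of 0.277 for 1424155_at. Over the 37 arrays 1417023_a_at followed the brightest signal of an array at r = 0.919, and 1451263_a_at at 0.804. For 1425809_at r was 0.204 and for 1424155_at -0.461. By mean signal 1417023_a_at ranked 15th of all probe sets, and whether it was limited at the top of the scale was not tested. Of the 6 pairs of Fabp4 probe sets, the restriction effect differed in 1, 1425809_at minus 1424155_at (-0.58, permutation test, adjusted p = 0.016). For 1424155_at minus 1417023_a_at the difference was 0.52 (adjusted p = 0.097). Averaged over its 4 probe sets Fabp4 was at 0.03 ± 0.11 (adjusted p = 0.90).

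Fabp5, the epidermal-type carrier also made in fat, endothelium and macrophages, changed the most. Its gene is a neighbour of Fabp4 on chromosome 3 of the mouse RefSeq annotation, with 2 protein-coding genes of the same family, Pmp2 and Fabp9, between them. On 1416022_at the lowest, median and highest signals were 3132, 5749 and 9138 in CR+EX glands, 4038, 5999 and 8279 in CR glands, 911, 2120.3 and 6188 in AL+EX glands and 1039.6, 2789.85 and 5767 in AL glands. All 18 restricted arrays lay above the unrestricted median, and 13 of 19 unrestricted arrays lay below the lowest restricted one. The averaged effect was 1.41 ± 0.22 (adjusted p = 9.1e-05).

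The other Fabp5 probe set, 1416021_a_at, ran from 4675 to 11911 in CR+EX, 6290.2 to 10838 in CR, 2051 to 8584 in AL+EX and 1710 to 9605 in AL glands. Medians were 8879 in CR+EX, 7848 in CR, 3796 in AL+EX and 5292 in AL glands. It rose by 1.03 ± 0.18 (adjusted p = 0.00053). Both moved in the same direction but not by the same amount, since the effect was 0.38 larger on 1416022_at (permutation test, adjusted p = 0.0054). By run the effect was 1.08, 1.15, 2.13 and 1.46 on 1416022_at and 0.65, 0.83, 1.49 and 1.32 on 1416021_a_at. Both stayed called without any 1 array and without the lymphocyte-rich arrays (1.24 and 0.83, adjusted p = 0.0076 and 0.011). Spread also differed: the SD of log2 signal on 1416022_at was 0.45 in CR+EX and 0.32 in CR glands, against 0.86 in AL+EX and 0.92 in AL glands. That difference in spread was not tested.

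**Figure D4:**
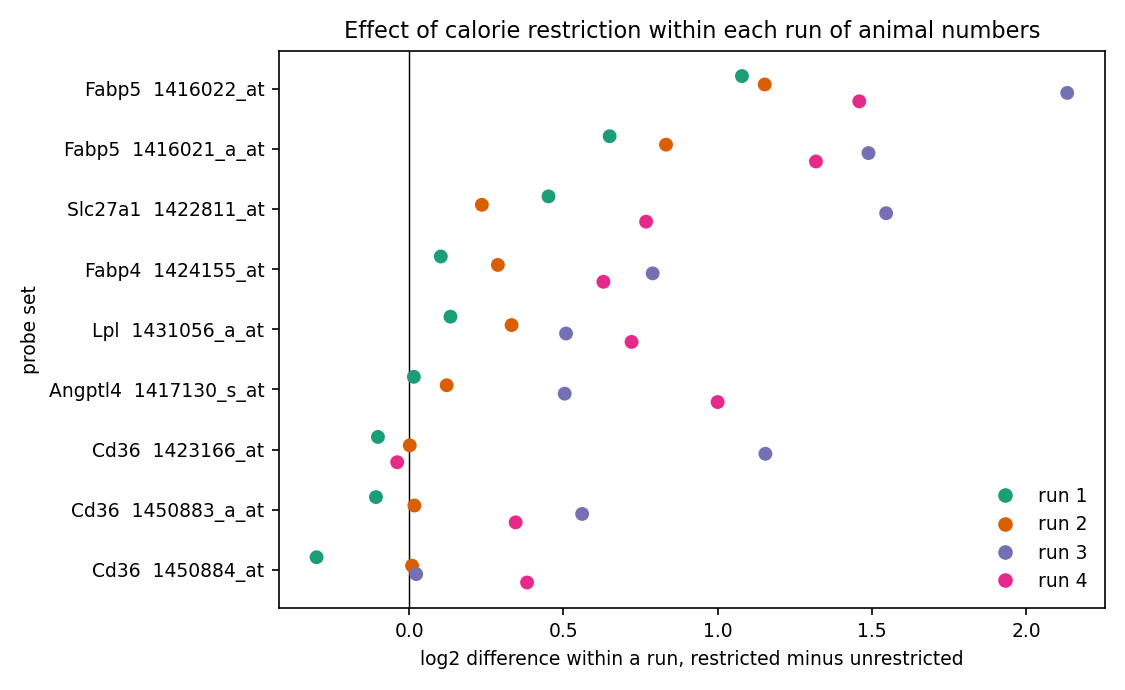
Log2 difference of restricted minus unrestricted arrays within each run of animal numbers, for the 6 called probe sets and the 3 Cd36 probe sets (points, coloured by run). The called probe sets are above 0 in all 4 runs, Angptl4 only just in run 1 (0.02), while each Cd36 probe set is below 0 in at least 1 run and the 3 together span -0.30 to 1.15.

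Each diet comparison was also made between single groups. In CR+EX against AL+EX, both Fabp5 probe sets (1.54 ± 0.31, adjusted p = 0.0071, and 1.14 ± 0.26, adjusted p = 0.022) and Lpl 1431056_a_at were called higher, 3 of 13. Of all probe sets 1.04% were called, 0.542% higher and 0.495% lower. The median difference of the 13 was 0.48, beside -0.03 over all probe sets. In CR against AL only Fabp5 1416022_at was called among the 13 (1.29 ± 0.30, adjusted p = 0.048), where 0.348% of all probe sets were called, 0.194% higher and 0.153% lower. The median of the 13 was 0.15, beside -0.03 over all probe sets. The Fabp5 call was lost in 26 of 37 fits that left out 1 array, with median centring (adjusted p = 0.052) and with quantile normalization (adjusted p = 0.062). Without the lymphocyte-rich arrays the difference was 0.86 (adjusted p = 0.24). Slc27a1 was at 0.80 ± 0.20 in CR against AL (adjusted p = 0.066) and at 0.66 ± 0.21 in CR+EX against AL+EX (adjusted p = 0.10). With runs as a block, CR against AL had 3 member calls, both Fabp5 probe sets (1.34, adjusted p = 0.0053, and 0.95, adjusted p = 0.0072) and Slc27a1 (0.84, adjusted p = 0.0072). CR+EX against AL+EX then had 6, gaining Slc27a1 (0.66, adjusted p = 0.030), Fabp4 1424155_at (0.53, adjusted p = 0.031) and, at the threshold, Angptl4 1417130_s_at (0.49). The CR+EX against AL+EX call of Fabp5 1416021_a_at was lost without animal 44, 46, 56 or 58 (adjusted p up to 0.070) and after quantile normalization (1.08, adjusted p = 0.052). With animals 56 and 58 both left out, Lpl 1431056_a_at was the 1 probe set called (0.62, adjusted p = 0.028), and Fabp5 1416022_at was at 1.23 (adjusted p = 0.093).

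Pairs that change both diet and wheel gave 1 call in CR+EX against AL, Fabp5 1416022_at (1.26 ± 0.30, adjusted p = 0.045), where 0.436% of all probe sets were called, 0.242% higher and 0.194% lower. Leaving out 1 array ended that call in 21 of 37 fits, and so did other settings, among them median centring (adjusted p = 0.056), quantile normalization (adjusted p = 0.069) and no lymphocyte-rich arrays (0.80, adjusted p = 0.31). With runs as a block it was called (adjusted p = 0.0099), as were Fabp5 1416021_a_at (0.93, adjusted p = 0.0099) and Lpl 1431056_a_at (0.39, adjusted p = 0.039). In CR against AL+EX there were 4 calls, both Fabp5 probe sets (1.57 ± 0.31, adjusted p = 0.0070, and 1.10 ± 0.26, adjusted p = 0.025), Slc27a1 (0.87 ± 0.21, adjusted p = 0.026) and Lpl 1431056_a_at (0.46 ± 0.12, adjusted p = 0.039), where 1.61% of all probe sets were called, 0.796% higher and 0.819% lower. None of these 4 was called without animals 56 and 58 or without the lymphocyte-rich arrays (lowest adjusted p = 0.055, Fabp5 1416022_at), and after quantile normalization only Fabp5 1416022_at was. Leaving out 1 array lost the Lpl call in 12 of 37 fits, the Slc27a1 call in 4 and the Fabp5 1416021_a_at call in 2. With runs as a block all 4 were called, and Fabp4 1424155_at (0.58, adjusted p = 0.016) and Angptl4 1417130_s_at (0.50, adjusted p = 0.039) joined them. These pairs share their groups with the comparisons above.

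No wheel difference passed the threshold for these genes. Averaged over diets, all 13 tested probe sets were below 0, between -0.21 and -0.04 with a median of -0.12, and 0 of 13 were called. In limma 0 of the 16969 probe sets were called either (0%), with 461 at an unadjusted p under 0.05, of which none was a member. AL+EX against AL is part of that average. There all 13 were below 0, with a median of -0.19 and 0 called (0% of all probe sets, 985 at an unadjusted p under 0.05). The lowest unadjusted p among members was 0.034, for Cd36 1423166_at (-0.42 ± 0.19), the probe set on which animals 56 and 58 are lowest. The shared direction depended on these animals and on other single arrays. With 1 array left out at a time, the highest value was 0.024 on Fabp4 1417023_a_at, 0.031 on Fabp4 1425809_at and 0.055 on Slc27a1. Without animals 56 and 58, Slc27a1, Fabp5 1416022_at (0.03) and Fabp5 1416021_a_at (0.06) were above 0 in AL+EX against AL, and the rest stayed below. The averaged wheel effect on Fabp5 was then above 0 too, at 0.003 on 1416022_at and 0.05 on 1416021_a_at. For Slc27a1 the highest value over all settings other than leaving out 1 array was 0.226 in AL+EX against AL. Its highest averaged wheel effect over those settings was 0.005. In CR+EX against CR, 4 were above 0 and 0 were called (0% of all probe sets, 162 at an unadjusted p under 0.05). For Fabp5 1416022_at the interval of the averaged wheel effect was -0.59 to 0.28, and for Lpl 1431056_a_at -0.21 to 0.13.

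Whether the wheel changed the effect of restriction was asked by the interaction. It was called for 0 of 13 members and 0 of all probe sets (0%, 553 at an unadjusted p under 0.05). At unadjusted p-values of 0.019 and 0.028, Lpl 1431056_a_at (0.40 ± 0.17) and Cd36 1450884_at (0.52 ± 0.23) had the largest values relative to their errors, both with an adjusted p of 1.0. All 5 arrays with a high Gapdh end ratio are in AL and CR+EX, the groups with a plus sign in the interaction. Over the 37 arrays r with this ratio was 0.539 for Cd36 1450884_at and 0.05 for Lpl 1431056_a_at. Over the settings other than leaving out 1 array, the interaction ran from 0.265 to 0.671 and from 0.272 to 0.448. The part of RNA quality in it was not tested.

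Around the enzyme, 21 genes for maturation, anchoring, cofactors and lipoprotein receptors were tested, and 2 were higher and 0 lower under restriction (median 0.10). In this list and those below each gene is judged by its brightest probe set. Over all probe sets 7.31% were called for averaged restriction, and 8.75% of 9294 with 1 probe set per gene. Counts of calls in these lists are to be read beside those shares. Lipg, the endothelial lipase, rose by 0.75 ± 0.10 (adjusted p = 9.1e-06), and of 2 further Lipg probe sets 1 had that sign. It was also called in CR against AL (0.70 ± 0.14, adjusted p = 0.022) and in CR+EX against AL+EX (0.80 ± 0.14, adjusted p = 0.0029). Angptl8, which acts with other angiopoietin-like proteins to inhibit the enzyme, rose by 0.51 ± 0.12 (adjusted p = 0.0087). The cofactor Apoc2 was at 0.29 ± 0.26 (adjusted p = 0.55) and the maturation factor Lmf1 at 0.07 ± 0.13 (adjusted p = 0.80).

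Of 16 other genes of fatty acid transport, binding and activation, 0 were higher and 1 was lower (median 0.08). The lower one was the lysosomal membrane protein gene Scarb2, by 0.23 ± 0.07 (adjusted p = 0.046), whose other probe set went the opposite way. Slc27a4, a relative of Slc27a1, was at 0.14 ± 0.12 (adjusted p = 0.55) and the muscle carrier Fabp3 at -0.35 ± 0.18 (adjusted p = 0.24).

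The lipid-sensing receptor genes Pparg and Ppara did not pass the test. Pparg, the fat cell regulator that acts on Lpl, Cd36, Fabp4 and Slc27a1, was at 0.21 ± 0.15 (adjusted p = 0.43), and Ppara at -0.61 ± 0.30 (adjusted p = 0.21). Among 15 such transcription factors, 2 were higher and 0 lower (median -0.02): Cebpb, a factor of fat cell formation (0.37 ± 0.11, adjusted p = 0.037), and the glucocorticoid receptor gene Nr3c1 (0.26 ± 0.08, adjusted p = 0.035). Of 17 target genes of these receptors and of fasting, 3 were higher and 1 lower (median 0.15). The glucocorticoid-induced Tsc22d3 (0.60 ± 0.13), the peroxisomal oxidation gene Ehhadh (0.75 ± 0.18) and the mitochondrial carrier gene Ucp3 (0.34 ± 0.09) rose, while Plin5, a lipid droplet protein of oxidative tissue, fell by 0.56 ± 0.15. Pdk4, a common fasting marker, was at 0.15 ± 0.12 (adjusted p = 0.53).

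Marker genes of the cells that could carry these transcripts were compared in the same way. Of 10 fat cell markers 2 were higher, resistin (Retn, 0.64 ± 0.19, adjusted p = 0.037) and the retinol carrier Rbp4 (0.49 ± 0.16, adjusted p = 0.048). Leptin (Lep), the hormone of fat stores, fell by 1.39 ± 0.38 (adjusted p = 0.021). The summed signal of the list ran from 72879 to 144642 in CR+EX, 60464 to 139991 in CR, 66386 to 88732 in AL+EX and 70957 to 151873 in AL glands. None of 16 endothelial markers was called, with sums of 8519 to 13261 in CR+EX, 8601 to 12594 in CR, 6819 to 12150 in AL+EX and 8558 to 11135 in AL glands. Of 14 macrophage markers 1 was higher, Cd163 (0.63 ± 0.19, adjusted p = 0.033), with sums of 7422 to 19600 in CR+EX, 7111 to 18919 in CR, 3361 to 19419 in AL+EX and 5899 to 18772 in AL glands. Of 13 luminal epithelial markers 2 were lower, Cd24a (-0.71 ± 0.15, adjusted p = 0.0030) and Wfdc2 (-0.67 ± 0.21, adjusted p = 0.047), and the list's median was -0.36. Sums over the 16 luminal genes on the array were 13089 to 27278 in CR+EX, 5510 to 28483 in CR, 9475 to 37628 in AL+EX and 7380 to 34448 in AL glands. None of 12 skeletal muscle markers, 7 brown fat markers, 7 basal and keratinocyte markers, 10 B lymphocyte markers or 6 T lymphocyte markers was called. The median differences were -0.41 for the B lymphocyte and -0.25 for the T lymphocyte list. They were 0.19 for the fat cell, 0.21 for the macrophage, 0.09 for the endothelial and 0.06 for the brown fat list. Skeletal muscle and basal lists were at -0.10 and -0.07. By pair, the fat cell list had a median of 0.30 in CR+EX against AL+EX and 0.35 in CR against AL+EX. It was at 0.12 in CR against AL, 0.06 in CR+EX against AL and -0.24 in AL+EX against AL. Leaving out the lymphocyte-rich arrays ended the averaged calls of Lpl, Fabp4 and Angptl4. It also removed run 4 and took the calls over all probe sets from 1240 to 612. Over the 37 arrays, r with the B lymphocyte mean was -0.775 for Fabp4 1424155_at, -0.417 for Angptl4 1417130_s_at and -0.299 for Lpl 1431056_a_at. It was -0.565 and -0.476 for Fabp5 1416021_a_at and 1416022_at, and -0.329 for Slc27a1. Among uncalled probe sets it was 0.317 for Lpl 1415904_at, 0.461 for Fabp4 1417023_a_at and -0.479 for Fabp4 1425809_at. Run 4 is mixed into these values. Whether lymphocyte content had a part in the lost calls was not tested. No marker among these lists read 0 on its median array, and the part of cell content in the members' differences was not tested.

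For each member's probe set with the highest mean signal, the 2 genes with the most similar log2 signal over the 37 arrays were found by Pearson's r. These are descriptions over arrays that share runs and scaling. Fabp5 was closest to Enpep (r = 0.934) and Echdc1 (r = 0.908), and after centring each run the values were 0.924 and 0.900. After centring on run and group they were 0.808 and 0.772. Enpep and Echdc1 were themselves higher under averaged restriction, by 1.41 and 0.685. Slc27a1 was closest to Aplp2 and St3gal4 (r = 0.879 and 0.874), Cd36 to Lgals1 and Steap4 (0.829 and 0.782) and Angptl4 to Rab34 and Cd302 (0.795 and 0.782). Centred on run and group, these were 0.749 and 0.765 for Slc27a1, 0.824 and 0.797 for Cd36, and 0.774 and 0.644 for Angptl4. Fabp4 1417023_a_at and Lpl 1415904_at both had Scd1, the stearoyl-CoA desaturase of fat cells, among their closest (r = 0.947 and 0.929), beside Car3 for Fabp4 (r = 0.963) and Uqcrb for Lpl (r = 0.943). After centring on runs these 4 values fell to between 0.817 and 0.865, and after centring on run and group they lay between 0.816 and 0.859.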

How the data were processed

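The deposited values are linear signal intensity from 1 Affymetrix array per animal. GCOS version 1 is named by the submitters' processing notes; how it computed signal is not given in the sources used here. Deposited arrays shared one scale, with a trimmed mean (2% off each end) of 500.16 to 500.23, and were not rescaled. Gene names are those of the platform annotation: 20380 probe sets name 1 gene, 691 several and 1555 none. Probe sets were tested singly as log2(signal + 16), after dropping the 25% with the lowest mean, with limma 3.58.1 (R 4.3.3) on all 37 arrays, 4 group means and 9 contrasts, with variances following the mean signal. P-values are two-sided and adjusted by Benjamini-Hochberg within a contrast. The fit was tested on simulated data. Arrays carry no counts, so their number limits the precision.

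The members, lists and tests were chosen with earlier results of these data known. All probe sets of the members are named; other named genes are those of each list past the threshold (up to 3 a direction by p) and the 2 most similar genes per member. Apoc2, Lmf1, Slc27a4, Fabp3, Pparg, Ppara, Pdk4 and the marker levels of Adipoq, Krt8, Krt18, Acta1 and Ucp1 were named outside that rule. Leaving out animals 56 and 58 (picked for their low Cd36, Fabp5 and Slc27a1 signals), the run block without the high Gapdh ratio arrays, the average of a gene's probe sets and the permutation tests between probe sets (100000 draws) were added after the data were seen. Alternatives covered the pseudocount, filter, scaling, variance trend, probe sets per gene, runs as a block, lymphocyte-rich arrays or those whose Gapdh control probe sets differed over 2-fold between the 3' and 5' ends, and each array left out.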

Additional observations from a re-analysis of the deposited data

Results flagged for a closer look

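Of 56 sets of values (14 probe sets in 4 groups), 4 had an array far from the rest of its group, and chance flags about 1 in 20 such sets. In AL+EX glands animal 36 was highest on both Fabp5 probe sets, with 8584 on 1416021_a_at (the next array was at 5164) and 6188 on 1416022_at (the next was at 2881). Animal 70 was the highest CR+EX array for Cd36 1423166_at, at 12352, with the next at 10364. Animal 130 was the lowest AL+EX array for Lpl 1431056_a_at, at 6955, with the next at 9034. On that animal's array the skeletal muscle and T lymphocyte markers were the highest of the 37 arrays.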

How the results depend on the processing

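No called member value changed sign, and of 5670 values of single probe sets under alternatives 5521 stayed on the same side of the threshold, 25 gained a call and the rest lost one. Called member probe sets for the averaged restriction effect (6) became 3 with 1 probe set per gene, which tests fewer probe sets, 3 without the lymphocyte-rich arrays, and 4 to 6 leaving out 1 array. For CR against AL (1) and for CR+EX against AL (1) the count was 0 under 7 settings: no filter, 1 probe set per gene, median centring, quantile normalization, no variance trend, no lymphocyte-rich arrays, and no high Gapdh ratio arrays. It was 3 with runs as a block in both, 2 (CR against AL) and 3 (CR+EX against AL) with that block and no high Gapdh ratio arrays, 2 without animals 56 and 58, and 0 to 2 leaving out 1 array. CR+EX against AL+EX (3) gave 1 with 1 probe set per gene, 6 with runs as a block, 1 without animals 56 and 58 and 2 to 4 leaving out 1 array. CR against AL+EX (4) gave 2 with 1 probe set per gene, 1 after quantile normalization, 0 without the lymphocyte-rich arrays, 0 without animals 56 and 58, and 1 to 5 leaving out 1 array. The cause of these moves was not tested. The 3 wheel contrasts and the interaction stayed at 0 under all 12 alternatives and all 37 fits without 1 array. Over all probe sets the averaged effect had 1240 calls, against 2965 with the block, 2270 with the block and no high Gapdh ratio arrays, 612 without the lymphocyte-rich arrays and 694 without animals 56 and 58. CR against AL had 59, against 1113 with the block, 289 with the block and no high Gapdh ratio arrays, 159 without animals 56 and 58, 39 with median centring, 29 with quantile normalization, 13 with no trend, 12 with no filter, 6 with no high Gapdh ratio arrays and 0 without the lymphocyte-rich arrays. CR+EX against AL+EX had 176, against 922, 521 and 28 under the first 3 of these, 287 with no high Gapdh ratio arrays and 60 without the lymphocyte-rich arrays. CR+EX against AL had 74, against 456, 185 and 112 under the same 3, 37 with median centring, 43 with no trend, 40 with no filter, and 4 each without the high Gapdh ratio and the lymphocyte-rich arrays. CR against AL+EX had 274, against 1312, 1304 and 12 under the same 3, 150 with median centring and 7 without the lymphocyte-rich arrays. Leaving out 1 array gave 914 to 1511 for the averaged effect, 6 to 155 for CR against AL, 68 to 324 for CR+EX against AL+EX, 21 to 120 for CR+EX against AL and 73 to 441 for CR against AL+EX. Among averaged calls, 582 higher and 658 lower became 807 and 310 with median centring and 662 and 511 with quantile normalization; for the pairs median centring gave 32 and 7 (CR against AL), 113 and 25 (CR+EX against AL+EX), 29 and 8 (CR+EX against AL) and, for CR against AL+EX, 26 lower among 150 calls. No paired analysis was possible because the animal numbers in the titles all differ between groups.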
